A study of Mus musculus with 30 samples.

Results

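The 35 genes described here encode the transporters and enzymes that carry glucose through glycolysis to pyruvate and lactate, the enzymes of the pentose phosphate pathway, the entry of pyruvate into the mitochondrion, and the hypoxia-inducible factor HIF-1α with some of its regulators and targets. They were chosen by name, as the rows of the count table that carry these 35 gene symbols, out of 54532 genes in all. The data are bulk mRNA sequencing of mouse microglia, the resident macrophages of the brain, in 30 libraries from 10 groups of 3 libraries each. The groups are 5 isolation protocols in C57/B6 mice, each as an untreated Control and after 4 h with HMGB1, a nuclear protein that acts as a danger signal once it is released from damaged cells. The neonatal Protocols 1A, 1B and 1C used pups of postnatal days 0 to 3. Suspensions of 5 mice were grown as mixed glial cultures, from which the microglia were shaken off. Protocol 1A had 0.5 ng/ml of the growth factor GM-CSF for 10 days, Protocol 1B had 0 ng/ml for 10 days, and Protocol 1C had 0.5 ng/ml for 21 days. Protocol 2 took mice aged 6 to 8 weeks, pooled 3 brains and kept the cells in culture for 7 days, with 100 ng/ml of M-CSF and 100 ng/ml of GM-CSF. Protocol 3 took mice of the same age, enriched CD11b-positive cells with magnetic beads and had 0 days of culture. All groups, Controls included, were held in a serum-free medium during the test, and the study's methods state an HMGB1 concentration for Protocol 3 only. Replicates of the neonatal protocols came from separate litters, and all libraries are labelled as biological replicates.

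Glycolysis splits glucose into pyruvate, which lactate dehydrogenase turns into lactate for export or the pyruvate dehydrogenase complex passes to mitochondrial respiration. The pentose phosphate pathway branches off at phosphorylated glucose and yields NADPH and ribose. HIF-1α is broken down after prolyl hydroxylases mark it in the presence of oxygen, and when it is stable it raises many glycolytic genes. Macrophages and microglia that meet inflammatory signals are known for a shift toward glycolysis and lactate production, and HIF-1α is known to take part in it.

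The libraries held 14151983 to 28564757 counts in total. Levels are counts scaled to a library total of 1000000 (CPM), with TMM factors from the 30 libraries. All 35 genes passed the filter on low counts in every comparison. In bulk samples, fewer cells of a type and less RNA per cell cannot be told apart. Tmem119, a defining microglial marker, stood at 59.97 CPM in the Control of Protocol 3 and at 1.24 to 4.70 CPM in the cultured Controls, whereas Csf1r, the receptor of M-CSF, was at 579 CPM or more in each. Siglech, another microglial marker, was at 445 CPM in Protocol 3 and at or near 0 in all cultured groups. The markers did not all go this way. Of 10 microglial markers, 2 passed as higher and 7 as lower in the Control of Protocol 1 than in Protocol 3. In Protocol 2, 3 were higher and 6 lower. Their summed level was 5016 to 5179 CPM in the Control of Protocol 3 and 1979 to 3684 CPM in the cultured Controls.

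Expressed per kilobase of gene length, which allows genes to be set beside each other, enzymes of the middle and lower part of glycolysis were among the most abundant of the 35. Over the 30 libraries the mean was 365 CPM per kilobase for the aldolase Aldoa, 317 for the pyruvate kinase Pkm, 265 for the phosphoglycerate kinase Pgk1 and 240.5 for the transaldolase Taldo1. The least abundant were the prolyl hydroxylase Egln3 at 1.89, the phosphofructokinase Pfkm at 2.33 and the growth factor Vegfa at 4.20 CPM per kilobase. Hk3 was the main hexokinase, the enzyme that traps glucose in the cell, with 188 CPM per kilobase against 15.7 for Hk2 and 8.10 for Hk1.

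The comparison of HMGB1 with Control asked how microglia of each protocol responded to this signal. In the neonatal protocols, the transcripts of the glucose transporter Slc2a1, the hexokinases Hk2 and Hk3, the phosphofructokinases Pfkl and Pfkp, the lactate exporter Slc16a3 and the NADPH-yielding enzymes G6pdx and Pgd rose, as did Hif1a. Vegfa, the regulator Pfkfb4 and the enolase Eno2 fell. Of the 35 genes, 15 rose and 11 fell in Protocol 1A, 18 rose and 9 fell in 1B, and 14 rose and 8 fell in 1C, in edgeR's quasi-likelihood test at an adjusted p below 0.05. Log2 fold changes are given ± SE throughout. The response to HMGB1 was broad in these protocols, and of all genes tested 61.3% were called in 1A (29.7% higher, 31.6% lower), 61.8% in 1B (29.8% higher, 32.0% lower) and 60.2% in 1C (28.4% higher, 31.8% lower). As a description, the median log2 fold change of the 35 genes was 0.14, 0.22 and 0.09 in 1A, 1B and 1C, beside -0.04, -0.02 and -0.04 over all genes tested. Called changes of at least 2-fold were 3 rises and 1 fall in 1A, 5 and 2 in 1B, and 5 and 4 in 1C. The share of all genes with changes of that size was not computed. Without HMGB1 replicate 2 of Protocol 1A, the falls in that protocol went from 11 to 6. The share of all genes in that fit is not given here.

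A set of 12 genes rose in all 3 neonatal protocols, 34.3% of the 35, while 22.0% of all genes tested in the 3 protocols did so. These were Slc2a1, Hk2, Hk3, Pfkl, Pfkp, Pfkfb3, Pgk1, Ldha, Slc16a3, G6pdx, Pgd and Hif1a. The 4 genes that fell in all 3 were Pfkfb4, Eno2, Egln1 and Vegfa, 11.4% of the 35 beside 24.0% of all genes tested. Gapdh, Pgam1, Pdha1 and Taldo1 passed in none, beside 19.4% of all genes tested. Slc16a1 and Pdhb passed in opposite directions in different protocols, as did 1.4% of all genes tested. The other 13 passed in 1 or 2 of the 3 protocols, each in a single direction. Some of these calls rested on single libraries. Slc16a3 was no longer called in 1A on leaving out HMGB1 replicates 1 or 2 (log2 fold changes 0.42 to 0.52, adjusted p from 0.0606 to 0.0728). Ldha was lost in 1C on leaving out Control replicate 2 or HMGB1 replicate 3 (log2 fold changes 0.27 to 0.28, adjusted p from 0.0501 to 0.0541). The fall of Egln1 in 1A was lost on leaving out Control replicates 1 or 2 or HMGB1 replicates 2 or 3 (log2 fold changes -0.33 to -0.22, adjusted p from 0.0699 to 0.168). It was also lost by the DESeq2 Wald test (adjusted p = 0.0533) and with DESeq2 size factors (adjusted p = 0.0561).

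**Figure D1:**
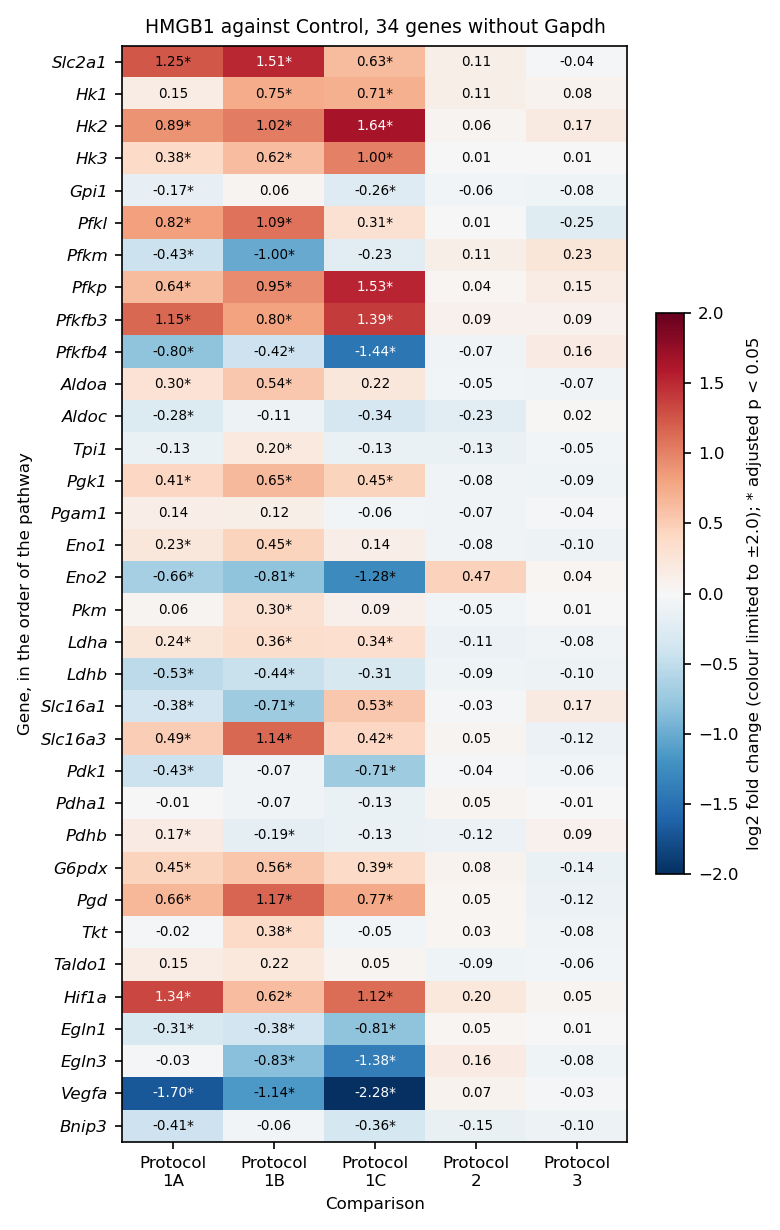
Log2 fold change of HMGB1 against Control in each protocol (columns) for 34 of the 35 genes in pathway order (rows), Gapdh left out for its spread between libraries; red is higher and blue lower with HMGB1, and an asterisk marks an adjusted p below 0.05. Asterisks stand in the 3 neonatal columns and in neither of the columns of Protocols 2 and 3, where values lay between -0.25 and 0.47.

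Slc2a1, which encodes the glucose transporter GLUT1 (chr4:119108711-119137983, + strand, GRCm38), rose in all 3 neonatal protocols. It was at 64.1, 56.4 and 51.9 CPM in the Control libraries and 155, 136 and 127 CPM in the HMGB1 libraries of Protocol 1A. In Protocol 1B it was at 76.4, 72.1 and 75.98 CPM without and 213, 213 and 212 CPM with HMGB1, and in 1C at 111, 98.9 and 95.1 CPM without and 167, 141 and 162 CPM with it. Every HMGB1 library lay above every Control library of its protocol, and the log2 fold changes were 1.25 ± 0.09 (adjusted p = 2.6e-07) in 1A, 1.51 ± 0.06 (adjusted p = 3.83e-09) in 1B and 0.63 ± 0.10 (adjusted p = 0.000181) in 1C.

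Among the hexokinases, Hk2, the form known to be induced in activated macrophages, was at 59.2, 56.8 and 68.5 CPM in the Control libraries and 169, 182 and 222 CPM in the HMGB1 libraries of Protocol 1C. The groups did not overlap in any neonatal protocol, and Hk2 changed by 0.89 ± 0.08 (adjusted p = 3.7e-07) in 1A, 1.02 ± 0.08 (adjusted p = 1.34e-06) in 1B and 1.64 ± 0.12 (adjusted p = 2.55e-07) in 1C on the log2 scale. The more abundant Hk3 was at 543, 517 and 621 CPM in the Control libraries and 988, 1083 and 1281 CPM in the HMGB1 libraries of Protocol 1C. It had log2 fold changes of 0.38, 0.62 and 1.003 in 1A, 1B and 1C. Hk1 rose in 1B and 1C (0.75 ± 0.06 and 0.71 ± 0.08 on the log2 scale) and had 0.15 ± 0.07 (adjusted p = 0.0683) in 1A. Gpi1, the isomerase that follows hexokinase, went the other way. It was at 313, 307 and 328 CPM in the Control libraries and 268, 260.3 and 261 CPM in the HMGB1 libraries of Protocol 1C. It fell in 1A and 1C (-0.17 ± 0.06, adjusted p = 0.0335 and -0.26 ± 0.08, adjusted p = 0.0203), with 0.06 in 1B. The small fall of Gpi1 in 1A was lost on leaving out Control replicates 1 or 2 or HMGB1 replicates 2 or 3 (log2 fold changes -0.18 to -0.13, adjusted p from 0.076 to 0.148). It was also lost by the DESeq2 Wald test (adjusted p = 0.0943), with DESeq2 size factors (0.0781), with no filter on low counts (0.0559) and in the fit of all 30 libraries (0.0881). The fall in 1C was lost on leaving out Control replicate 3 or HMGB1 replicates 1 or 2 (log2 fold changes -0.26 to -0.23, adjusted p from 0.0583 to 0.101) and with DESeq2 size factors (adjusted p = 0.0609).

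Phosphofructokinase commits sugar to glycolysis, and its 3 genes split. Pfkl, the liver-type form, was at 69.4, 67.8 and 60.6 CPM in the Control libraries and 141, 136 and 142 CPM in the HMGB1 libraries of Protocol 1B. It rose by 0.82, 1.09 and 0.31 on the log2 scale in 1A, 1B and 1C. Pfkp, the platelet-type form, rose by 0.64, 0.95 and 1.53. The muscle-type Pfkm, the least abundant, fell in 1A and 1B (-0.43 ± 0.14, adjusted p = 0.0173 and -1.003 ± 0.18, adjusted p = 0.000542) and had -0.23 ± 0.16 (adjusted p = 0.23) in 1C. The call in 1A was lost on leaving out Control replicates 2 or 3 or HMGB1 replicate 2 (log2 fold changes -0.38 to -0.34, adjusted p from 0.0624 to 0.0778). It was also lost in the fit of all 30 libraries (adjusted p = 0.0688). In 1A the Control and HMGB1 libraries of Pfkm overlapped, and in 1B they did not.

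The bifunctional enzymes that make and remove the fructose bisphosphate activator of phosphofructokinase moved apart in the same way. Pfkfb3, whose product mainly makes the activator, was at 98.1, 88.5 and 102 CPM in the Control libraries and 223, 252 and 278 CPM in the HMGB1 libraries of Protocol 1C. Its log2 fold changes were 1.15 ± 0.08 (adjusted p = 1.29e-08) in 1A, 0.80 ± 0.11 (adjusted p = 0.00011) in 1B and 1.39 ± 0.10 (adjusted p = 3.35e-07) in 1C, with no overlap between the groups. Pfkfb4 fell by 0.80, 0.42 and 1.44 on the log2 scale in 1A, 1B and 1C, from 62.01 ± 2.23 to 22.7 ± 1.85 CPM in 1C (mean ± SD, n = 3).

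The abundant enzymes from aldolase to pyruvate kinase changed little or moderately. Aldoa was at 1296, 1215 and 1147 CPM in the Control libraries and 1846, 1777 and 1675 CPM in the HMGB1 libraries of Protocol 1B. It rose in 1A and 1B (0.30 ± 0.07, adjusted p = 0.00149 and 0.54 ± 0.07, adjusted p = 6.89e-05), with 0.22 ± 0.09 (adjusted p = 0.0593) in 1C, where the groups did not overlap either. Pgk1 rose by 0.41, 0.65 and 0.45, and Eno1, the main enolase, by 0.23 in 1A and 0.45 in 1B, with 0.14 ± 0.10 (adjusted p = 0.26) in 1C. Pkm was at 1714, 1713 and 1679 CPM in the Control libraries and 1993, 2144 and 2131 CPM in the HMGB1 libraries of Protocol 1B. It rose there (0.30 ± 0.06, adjusted p = 0.00204) and had 0.06 in 1A and 0.09 in 1C. Tpi1, the triose phosphate isomerase, passed in 1B only (0.20 ± 0.08, adjusted p = 0.04), with overlapping groups. The call was lost on leaving out Control replicates 1 or 3 or HMGB1 replicates 2 or 3 (log2 fold changes 0.15 to 0.18, adjusted p from 0.115 to 0.145). It was also lost in the fit of all 30 libraries (adjusted p = 0.0545), with no filter on low counts (0.121) and without rRNA-type rows (0.051). Pgam1, the phosphoglycerate mutase, passed in none and had log2 fold changes of 0.14 ± 0.07, 0.12 ± 0.06 and -0.06 ± 0.09 in 1A, 1B and 1C.

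The minor forms Aldoc and Eno2 moved down where they passed. Aldoc, the brain-type aldolase, fell in 1A (-0.28 ± 0.10, adjusted p = 0.034), with -0.11 in 1B and -0.34 in 1C. The call was lost on leaving out Control replicate 1 or HMGB1 replicates 2 or 3 (log2 fold changes -0.23 to -0.20, adjusted p from 0.121 to 0.144). It was also lost by the DESeq2 Wald test (adjusted p = 0.0642) and in the fit of all 30 libraries (adjusted p = 0.45). Eno2, the neuronal enolase, fell from 15.2 ± 2.44 to 6.24 ± 0.595 CPM in 1C (mean ± SD, n = 3). On the log2 scale, Eno2 changed by -0.66 ± 0.15 (adjusted p = 0.00146) in 1A, -0.81 ± 0.17 (adjusted p = 0.00168) in 1B and -1.28 ± 0.16 (adjusted p = 3.6e-05) in 1C. The fall in 1A was not called in the fit of all 30 libraries (adjusted p = 0.0573).

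The transcripts of Ldha and Slc16a3, the forms known to serve lactate production and export, rose in all 3 neonatal protocols. Ldha, which favours the step from pyruvate to lactate, was at 709, 726 and 681 CPM in the Control libraries and 827, 957 and 919 CPM in the HMGB1 libraries of Protocol 1B. On the log2 scale, Ldha changed by 0.24 ± 0.06 (adjusted p = 0.00423) in 1A, 0.36 ± 0.07 (adjusted p = 0.00143) in 1B and 0.34 ± 0.10 (adjusted p = 0.0137) in 1C. Ldhb, which favours the reverse step, was at 17.4, 13.4 and 14.2 CPM in the Control libraries and 11.9, 10.4 and 9.51 CPM in the HMGB1 libraries of Protocol 1A. It fell in 1A and 1B (-0.53 ± 0.14, adjusted p = 0.0041 and -0.44 ± 0.13, adjusted p = 0.0141), with -0.31 ± 0.14 (adjusted p = 0.0647) in 1C. The fall in 1B was lost on leaving out Control replicate 1 (log2 fold change -0.37, adjusted p = 0.0653). Slc16a3, the lactate exporter MCT4, was at 79.3, 82.2 and 78.7 CPM in the Control libraries and 179.9, 172 and 177 CPM in the HMGB1 libraries of Protocol 1B. On the log2 scale, Slc16a3 changed by 0.49 ± 0.14 (adjusted p = 0.0198) in 1A, 1.14 ± 0.06 (adjusted p = 4.13e-08) in 1B and 0.42 ± 0.08 (adjusted p = 0.0011) in 1C. Slc16a1, the related transporter MCT1, fell in 1A and 1B (-0.38 ± 0.10, adjusted p = 0.0041 and -0.71 ± 0.11, adjusted p = 0.000178) and rose in 1C (0.53 ± 0.15, adjusted p = 0.00972).

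At the entry of pyruvate into mitochondrial respiration, Pdk1, the kinase that switches off pyruvate dehydrogenase and a known HIF-1α target, fell in 1A and 1C. It was at 75.5, 65.9 and 74.95 CPM in the Control libraries and 43.5, 42.2 and 45.5 CPM in the HMGB1 libraries of Protocol 1C. Its log2 fold changes were -0.43 ± 0.07 (adjusted p = 0.000125) in 1A, -0.07 ± 0.06 (adjusted p = 0.346) in 1B and -0.71 ± 0.09 (adjusted p = 2.86e-05) in 1C. Pdhb, a subunit of pyruvate dehydrogenase, was at 62.1, 57.1 and 59.7 CPM in the Control libraries and 68.04, 68.2 and 68.9 CPM in the HMGB1 libraries of Protocol 1A. It rose there (0.17 ± 0.06, adjusted p = 0.0299), while it fell in 1B (-0.19 ± 0.07, adjusted p = 0.0383) and had -0.13 in 1C. The call in 1A was lost on leaving out Control replicate 2 or HMGB1 replicate 3 (log2 fold changes 0.14 to 0.17, adjusted p from 0.0874 to 0.131) and with no filter on low counts (adjusted p = 0.108). The call in 1B was lost on leaving out Control replicates 1 or 2 or HMGB1 replicates 1 or 3 (log2 fold changes -0.19 to -0.14, adjusted p from 0.0781 to 0.143). It was also lost by the DESeq2 Wald test (adjusted p = 0.154) and with DESeq2 size factors (adjusted p = 0.0986). Pdha1, the other subunit, passed in none, with -0.01 ± 0.06, -0.07 ± 0.07 and -0.13 ± 0.09 on the log2 scale.

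Of the pentose phosphate enzymes, G6pdx and Pgd, the dehydrogenases of the branch that makes NADPH, rose in all 3 neonatal protocols. G6pdx, the entry enzyme of the pathway, was at 231, 223 and 233 CPM in the Control libraries and 339, 307 and 307 CPM in the HMGB1 libraries of Protocol 1A. On the log2 scale, G6pdx changed by 0.45 ± 0.06 (adjusted p = 4.05e-05) in 1A, 0.56 ± 0.06 (adjusted p = 1.2e-05) in 1B and 0.39 ± 0.09 (adjusted p = 0.00336) in 1C. Pgd, the enzyme that follows the lactonase, rose by 0.66, 1.17 and 0.77, from 470.1 ± 28.2 to 1050.1 ± 94.6 CPM in 1B (mean ± SD, n = 3). In the branch that interconverts sugars, the transketolase Tkt rose in 1B (0.38 ± 0.06, adjusted p = 0.000309) and had -0.02 in 1A and -0.05 in 1C. Taldo1 was at 542, 475 and 493 CPM in the Control libraries and 668, 491 and 542 CPM in the HMGB1 libraries of Protocol 1A. It did not pass in any, with 0.15 ± 0.11, 0.22 ± 0.09 and 0.05 ± 0.13 on the log2 scale in 1A, 1B and 1C.

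Hif1a (chr12:73901375-73947530, + strand, GRCm38) rose in all 3 neonatal protocols. Genes that its protein is known to raise went both ways, since Slc2a1, Hk2, Pgk1, Ldha and Pfkfb3 rose in all 3, while Vegfa fell in all 3 and Pdk1, Egln3 and Bnip3 each fell in a pair of them. Hif1a was at 114, 122 and 106 CPM in the Control libraries and 296, 279 and 307 CPM in the HMGB1 libraries of Protocol 1A, with no overlap between the groups in any of the 3 protocols. Its log2 fold changes were 1.34 ± 0.07 (adjusted p = 1.83e-09) in 1A, 0.62 ± 0.06 (adjusted p = 9.91e-06) in 1B and 1.12 ± 0.10 (adjusted p = 1.91e-06) in 1C. Egln1, the main prolyl hydroxylase that marks HIF-1α for breakdown, fell by 0.31, 0.38 and 0.81 on the log2 scale in 1A, 1B and 1C. Egln3, the related enzyme that hypoxia induces, was at 6.19, 4.83 and 5.08 CPM in the Control libraries and 3.25, 1.52 and 1.27 CPM in the HMGB1 libraries of Protocol 1C. It fell in 1B and 1C (-0.83 ± 0.24, adjusted p = 0.0137 and -1.38 ± 0.32, adjusted p = 0.00313), with -0.03 in 1A. The call in 1B was lost on leaving out Control replicate 1 (log2 fold change -0.62, adjusted p = 0.054) and in the fit of all 30 libraries (adjusted p = 0.0876).

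Vegfa, which encodes the vascular endothelial growth factor and is a classical HIF-1α target, lies at chr17:46016993-46032369, - strand (GRCm38) and gave the largest fall of those that passed in each neonatal protocol. It was at 56.2, 72.3 and 65.7 CPM in the Control libraries and 10.2, 11.7 and 17.9 CPM in the HMGB1 libraries of Protocol 1C. In 1A it was at 7.84, 5.59 and 5.37 CPM without and 1.46, 2.92 and 1.41 CPM with HMGB1, and in 1B at 10.9, 9.41 and 8.53 CPM without and 4.88, 3.15 and 4.95 CPM with it. Its log2 fold changes were -1.70 ± 0.28 (adjusted p = 0.000164) in 1A, -1.14 ± 0.19 (adjusted p = 0.000386) in 1B and -2.28 ± 0.20 (adjusted p = 1.22e-05) in 1C. Bnip3, which encodes a mitophagy receptor, was at 12.1, 12.5 and 12.6 CPM in the Control libraries and 10.1, 8.03 and 10.4 CPM in the HMGB1 libraries of Protocol 1A. It fell in 1A and 1C (-0.41 ± 0.13, adjusted p = 0.0163 and -0.36 ± 0.13, adjusted p = 0.037), with -0.06 in 1B. Its fall in 1A was lost on leaving out HMGB1 replicate 2 (log2 fold change -0.28, adjusted p = 0.0814). Its fall in 1C was lost on leaving out Control replicates 1, 2 or 3 or HMGB1 replicates 2 or 3 (log2 fold changes -0.40 to -0.27, adjusted p from 0.0527 to 0.145). That fall was also lost by the DESeq2 Wald test (adjusted p = 0.0899) and with DESeq2 size factors (adjusted p = 0.0667). Markers of other cell types were low in these cultures but some moved with HMGB1. The summed level of 8 endothelial markers was 38.5 to 49.4 CPM in the Control libraries and 179 to 269 CPM in the HMGB1 libraries of 1C, mostly from the VEGF receptor gene Flt1, while Cldn5 was at 0 in both groups. It was 9.33 to 17.9 without and 21.4 to 28.3 CPM with HMGB1 in 1A, and 5.80 to 9.50 and 26.9 to 42.96 CPM in 1B. The 8 astrocyte markers, mostly Aldh1l1, summed to 28.3 to 39.1 CPM without and 48.5 to 56.1 CPM with HMGB1 in 1A and to 32.6 to 36.9 and 44.6 to 57.4 CPM in 1C. The sum of 7 oligodendrocyte markers, mostly Mbp, was lower with HMGB1 in 1A and 1B. It was 80.1 to 87.7 CPM without and 32.00 to 40.3 CPM with it in 1A, where Mog was at 0. In 1B it was 70.6 to 84.3 and 25.8 to 67.2 CPM. Of the 3 of these markers tested in 1A, 1 rose and 1 fell, and of the 6 tested in 1B, 0 rose and 1 fell. The 8 neuron markers summed to 3.06 to 5.72 CPM without and 1.14 to 2.87 CPM with HMGB1 in 1A. The sums of 10 immediate early genes were also higher with HMGB1 in each neonatal protocol, for instance 557 to 578 against 1111 to 1166 CPM in 1A. The groups of these sums did not overlap, and the other marker sums overlapped. The part of these in the results was not tested.

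**Figure D2:**
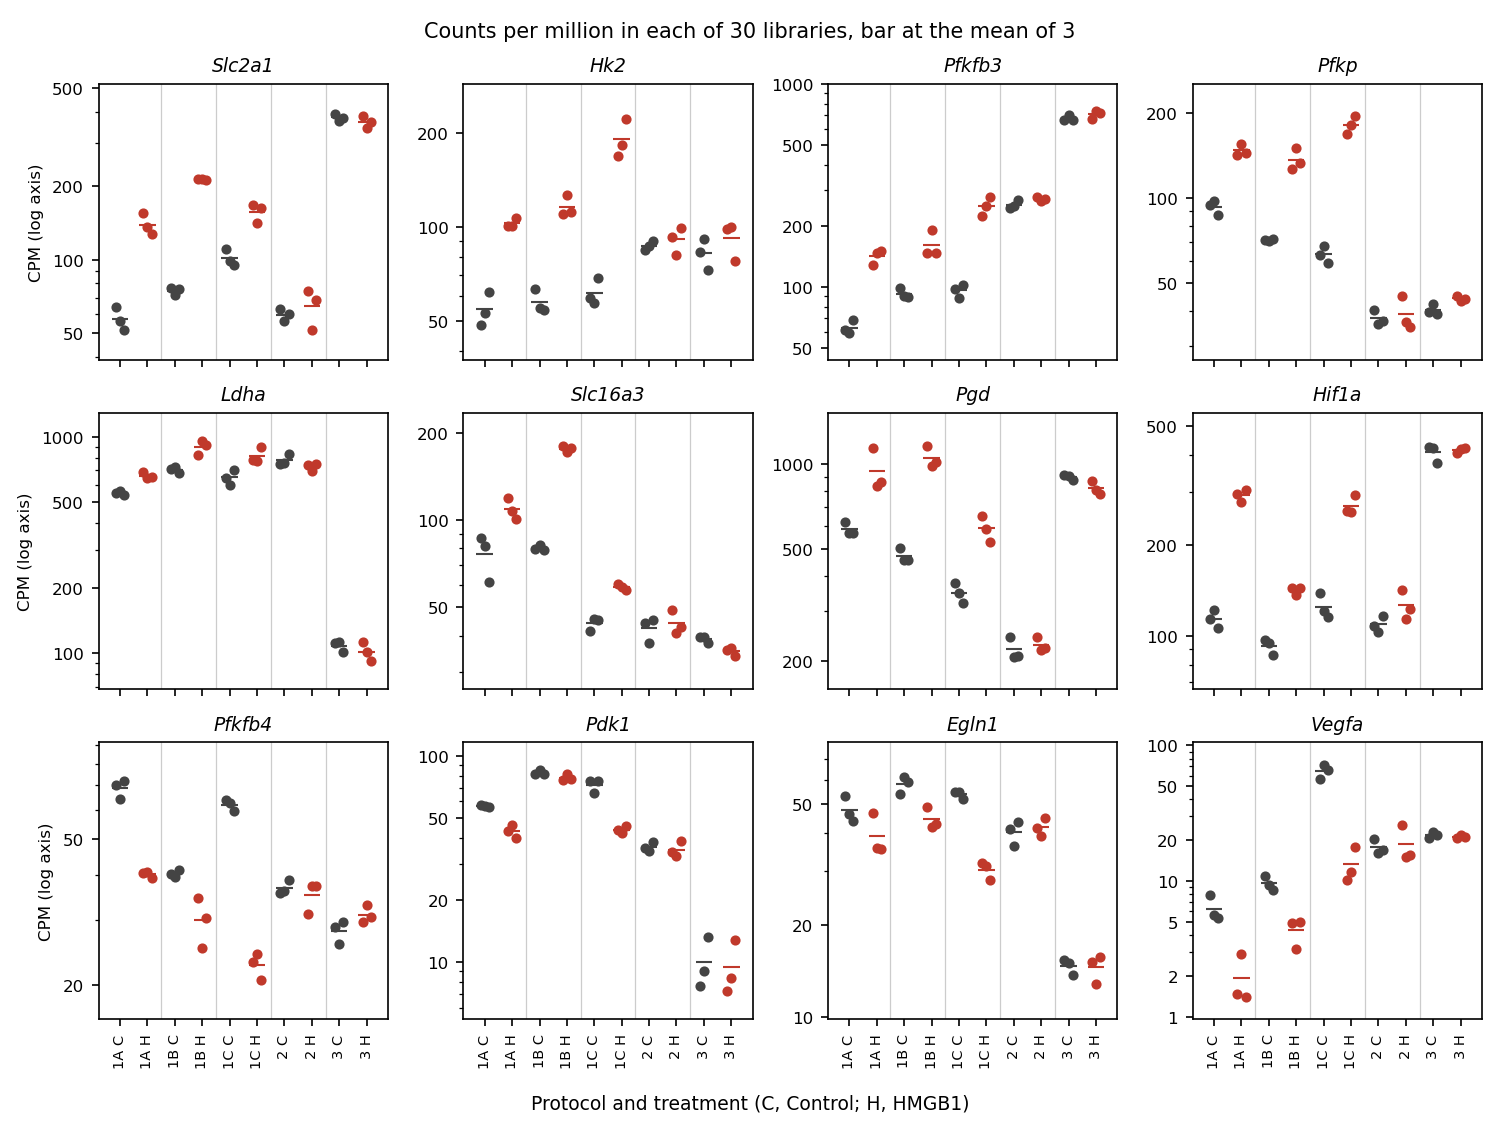
Level of 12 of the genes in each of the 30 libraries (points, CPM on a log axis) by protocol and treatment, Control in grey and HMGB1 in red, with a bar at the mean of 3. In Protocols 1A, 1B and 1C the HMGB1 points of Slc2a1, Hk2, Pfkfb3, Pfkp, Ldha, Slc16a3, Pgd and Hif1a lie above the Control points and those of Pfkfb4 and Vegfa below, while in Protocols 2 and 3 their changes lie between -0.12 and 0.20 on the log2 scale, rounded to 2 decimals, and none passed.

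In the adult protocols, edgeR's quasi-likelihood test called 0 of the 35 genes after HMGB1. Of all genes tested, 1.49% were called in Protocol 2 (1.21% higher, 0.283% lower) and 0.123% in Protocol 3 (0.123% higher, 0.0% lower). At an unadjusted p below 0.05, 2 of the 35 were higher and 0 lower in Protocol 2, Eno2 and Hif1a. In Protocol 3, 0 were higher and 2 lower, Gapdh and Pfkl. Either count is near the share that such a threshold passes where nothing changes. The share of all genes at this threshold was not computed. Slc2a1 was at 63.1, 56.03 and 59.8 CPM in the Control libraries and 74.7, 51.7 and 68.2 CPM in the HMGB1 libraries of Protocol 2 (0.11 ± 0.12 on the log2 scale). In Protocol 3 it was at 394, 368 and 379 CPM without and 387, 346 and 363 CPM with HMGB1 (-0.04 ± 0.07 on the log2 scale). Hif1a was at 108, 103 and 116 CPM in the Control libraries and 142, 113 and 123 CPM in the HMGB1 libraries of Protocol 2, with 0.20 ± 0.08 (adjusted p = 0.405). Eno2 had 0.47 ± 0.14 (adjusted p = 0.268) in Protocol 2, and its groups did not overlap. The test above used no pairs. In a further fit, libraries of the same replicate number were taken as pairs in Protocols 2 and 3. With that number as a block, Eno2 (log2 fold change 0.46, adjusted p = 1.26e-06) and Hif1a (log2 fold change 0.20, adjusted p = 0.00294) rose and Tpi1 (log2 fold change -0.13, adjusted p = 0.0291) fell in Protocol 2, with 0 calls in Protocol 3. That fit called 7.95% of all genes in Protocol 2 (4.63% higher, 3.32% lower) and 2.17% in Protocol 3, so the 3 of 35 in Protocol 2 are close to the share of all genes. The DESeq2 Wald test called Eno2 in Protocol 2 (log2 fold change 0.47, adjusted p = 0.0474) and Gapdh in Protocol 3 (log2 fold change -0.85, adjusted p = 0.0169). Vegfa was at 20.9, 22.9 and 21.9 CPM in the Control libraries and 20.9, 21.7 and 21.1 CPM in the HMGB1 libraries of Protocol 3, with -0.03 ± 0.10 (adjusted p = 0.995). Ldha had -0.11 ± 0.07 in Protocol 2 and -0.08 ± 0.08 in Protocol 3, and Pfkfb3 0.09 ± 0.06 and 0.09 ± 0.07.

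The difference between responses was tested in a fit of all 30 libraries. Against the mean response of 1A, 1B and 1C, the response of Protocol 2 was lower for 15 and higher for 6 of the 35 genes, where 43.6% of all genes differed (20.6% lower, 22.9% higher). That of Protocol 3 was lower for 15 and higher for 6, where 42.7% differed (22.5% lower, 20.2% higher). Both comparisons share the neonatal libraries. The response of Vegfa was higher by 1.78 ± 0.26 (adjusted p = 2.6e-06) in Protocol 2 and 1.65 ± 0.26 (adjusted p = 8.79e-06) in Protocol 3 and that of Hk2 was -1.12 ± 0.13 (adjusted p = 1.01e-08) and -1.03 ± 0.13 (adjusted p = 5.75e-08). With Protocol 1A alone in place of the mean of 3, the genes with a higher response went from 6 to 3 in each adult protocol (Pfkm, Ldhb and Egln1 were lost in Protocol 2, and Pfkm, Eno2 and Egln1 in Protocol 3). Hk1 was lost among the lower ones in both. Higher responses over all 18182 genes tested also became fewer, from 4168 to 2907 in Protocol 2 and from 3672 to 2630 in Protocol 3. Within the neonatal protocols 6 genes responded differently in 1B than in 1A (4 higher and 2 lower). Of all genes, 6.9% did so (3.7% higher, 3.21% lower). In 1C, 10 genes responded differently than in 1A (5 higher and 5 lower), as did 14.0% of all genes (5.46% higher, 8.53% lower). Hif1a rose less in 1B than in 1A, Pgd and Slc16a3 rose more in 1B, Hk2, Hk3 and Pfkp rose more in 1C than in 1A, and Slc2a1 and Pfkl rose less in 1C. The call of Pgd was lost on leaving out Protocol 1A Control replicate 1 or Protocol 1A HMGB1 replicates 2 or 3 or Protocol 1B Control replicates 2 or 3 or Protocol 1B HMGB1 replicate 1 (differences 0.39 to 0.45, adjusted p from 0.077 to 0.11). The higher responses of 1B ranged from 2 to 5 and the lower ones from 1 to 3 when each library was left out in turn. There were 2 higher on leaving out HMGB1 replicates 2 or 3 of 1A, Control replicates 2 or 3 of 1B or HMGB1 replicate 1 of 1B. There was 1 lower on leaving out Control replicate 2 or any HMGB1 replicate of 1A, Control replicates 1 or 2 of 1B or HMGB1 replicates 1 or 3 of 1B. The adult protocols differ from the neonatal ones in age, culture and growth factors at once, so that these cannot be told apart.

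HIF-1 binds a short core, ACGTG or GCGTG, in the promoters of its targets, and the bases before the start of the 35 genes were searched for it on either strand. The promoters come from RefSeq (GRCm38.p6), with 250 bases before each annotated start, and all 35 genes matched by symbol. At least 1 promoter held the core in 32 of 35 genes (91.4%), against 41.5% of the 27025 genes in the RefSeq table and 58.0% of the 11945 matched genes that were tested here. All 12 genes that rose in the 3 neonatal protocols had it, as did 3 of the 4 that fell and all 4 that passed in none of the 3. Eno2, Tpi1 and Gpi1 had none. In Vegfa, counted among those that fell, the promoter at chr17:46032328-46032627 held no core. The one at chr17:46025114-46025413 did, in a stretch that overlaps a Vegfa exon. The core holds a CpG, so a promoter rich in CpG holds it more often. Over promoters, 40 of the 50 of the 35 genes (80.0%) had it, against 58.2% of promoters of tested genes with 9 to 19 CpGs. A match is a description of letters and not a site of binding, which was not measured here. Stretches of 60 bases are shown on the strand of each gene for 5 genes that rose in all 3 neonatal protocols and for 2 that fell in 2 of them, with the core on either strand in capitals, to show that it stands before genes of either direction.
Hk2, chr6:82774475-82774534, - strand: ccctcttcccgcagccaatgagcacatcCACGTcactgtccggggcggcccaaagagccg
Pfkl, chr10:78009875-78009934, - strand: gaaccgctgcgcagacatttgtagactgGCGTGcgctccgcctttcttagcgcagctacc
Pgk1, chrX:106186941-106187000, + strand: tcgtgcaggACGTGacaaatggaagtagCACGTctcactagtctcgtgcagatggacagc
Ldha, chr7:46845742-46845801, + strand: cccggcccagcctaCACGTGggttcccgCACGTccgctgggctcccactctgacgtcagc
Hif1a, chr12:73907769-73907828, + strand: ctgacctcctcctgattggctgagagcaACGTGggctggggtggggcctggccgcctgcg
Pdk1, chr2:71873118-71873177, + strand: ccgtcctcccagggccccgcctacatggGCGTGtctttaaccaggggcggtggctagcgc
Egln3, chr12:54204065-54204124, - strand: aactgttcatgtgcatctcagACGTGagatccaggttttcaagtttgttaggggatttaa

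The core nearest to the start lay 34 bases before it in Ldha, 52 in Hk2, 70 in Hif1a, 78 in Pdk1, 99 in Pfkl, 131 in Pgk1 and 229 in Egln3. None of these stretches overlaps an annotated exon. Pgk1 shows another core in the same stretch, and Ldha shows a palindrome that holds the core on both strands, followed by a further core.

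Other genes of the same pathways moved in both directions in the neonatal protocols. Of 35 further glycolysis, pyruvate and pentose phosphate genes, 30 were tested in each, and 8 rose and 10 fell in 1A, 8 and 13 in 1B, and 6 and 11 in 1C. Gpd2, the mitochondrial glycerol phosphate dehydrogenase, rose by 2.99 ± 0.07 (adjusted p = 5.73e-13), 2.94 ± 0.08 (adjusted p = 6.54e-10) and 2.25 ± 0.13 (adjusted p = 6.78e-08) on the log2 scale, and it was the single gene of this list called in Protocol 2 (0.72 ± 0.08, adjusted p = 0.000261). Slc2a6, a glucose transporter family member of macrophages, rose by 4.39 ± 0.10 (adjusted p = 1.55e-10) in 1B and 4.30 ± 0.10 (adjusted p = 7.14e-11) in 1C. For this and the other further genes, a neonatal protocol that is not named was left out by the choice of genes. The result there is not given here. Pdk2, another pyruvate dehydrogenase kinase, changed by -2.88 ± 0.19 (adjusted p = 1.14e-08) in 1A and -2.24 ± 0.18 (adjusted p = 6.93e-07) in 1C, while Pdk3 rose in 1C (1.28 ± 0.10, adjusted p = 5.42e-07). Dld, a subunit of pyruvate dehydrogenase, rose in 1A (0.86 ± 0.06, adjusted p = 2.98e-08). Pgls, the lactonase between G6pdx and Pgd, did not pass in 1A (-0.01 ± 0.07, adjusted p = 0.944) or 1C (-0.21 ± 0.10, adjusted p = 0.0871).

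Of 28 further genes known for their response to hypoxia, 23 were tested in 1A and 24 in each of 1B and 1C, and 7 rose and 9 fell in 1A, 11 and 9 in 1B, and 6 and 9 in 1C. P4ha1, a collagen prolyl hydroxylase, rose by 1.499 ± 0.06 (adjusted p = 1.23e-10), 1.58 ± 0.07 (adjusted p = 7.74e-09) and 1.54 ± 0.12 (adjusted p = 3.81e-07) on the log2 scale. Cited2, which limits the activity of HIF-1α, rose in 1A (1.99 ± 0.09, adjusted p = 1.73e-09) and 1C (3.39 ± 0.15, adjusted p = 5.4e-09). Bhlhe40, a repressor that hypoxia induces, fell in all 3 (-1.48 ± 0.08, adjusted p = 1.67e-09, -2.87 ± 0.11, adjusted p = 5.18e-09 and -2.67 ± 0.13, adjusted p = 1.46e-08), and Angptl4, an inhibitor of lipoprotein lipase, fell in 1A (-5.42 ± 0.18, adjusted p = 1.05e-11) and 1C (-4.36 ± 0.22, adjusted p = 1.53e-08). Arnt, the partner of HIF-1α, did not pass in any of the 3 (-0.07 ± 0.08, adjusted p = 0.478, 0.13 ± 0.07, adjusted p = 0.121 and 0.06 ± 0.09, adjusted p = 0.555). In Protocols 2 and 3, 0 of these genes passed.

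The comparison of the untreated Controls asked how the protocol itself set these transcripts. Protocol 3, the acutely isolated adult cells, had lower transcripts than Protocols 1 and 2 for Tpi1, Pgk1, Pgam1, Eno1, Pkm, Ldha and Pdk1 and higher transcripts for Slc2a1, Pfkfb3, Hif1a, Eno2, Taldo1, Pgd and Pdhb. The 3 neonatal Controls were averaged as Protocol 1. Relative to Protocol 3, 21 of the 35 genes were raised and 12 reduced in Protocol 1, where 80.1% of all genes differed (37.3% higher, 42.9% lower). Protocol 2 had 15 of them raised and 13 reduced, where 77.3% of all genes differed (40.1% higher, 37.2% lower). These comparisons share the Protocol 3 libraries. As a description, the median log2 difference of the 35 genes was 0.67 for Protocol 1 against 3 and 0.04 for 2 against 3, beside -0.12 and 0.08 over all genes tested. Age, culture, growth factors and the sorting step differ between the protocols at once and cannot be told apart. RNA quality differed as well, since the study reports lower RNA yield and integrity for the acutely isolated adult cells than for the cultured adult cells. The part of RNA quality in the differences between Controls was not tested.

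Other transcripts set the Protocol 3 Controls apart too. The sum of 10 immediate early genes known to rise in tissue dissociation, such as Fos and Egr1, was 19888 to 21362 CPM there and 557 to 936 CPM in the cultured Controls, with counts for 10 of 10 genes in each group. The 8 neutrophil markers summed to 341 to 722 CPM with counts for all 8 in Protocol 3, against 2.27 to 60.8 CPM in the cultured Controls, where S100a9 and Ngp were at or near 0. The 5 erythrocyte markers summed to 351 to 662 CPM against 0 to 0.533 CPM. The 8 endothelial markers were also higher, at 131 to 149 against 5.80 to 57.2 CPM. The part of these cells and of the dissociation in the differences between Controls was not tested.

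Ldha was among the genes with the widest gap. It was at 111, 113 and 101 CPM in the Control libraries of Protocol 3, 752, 761 and 833 CPM in those of Protocol 2 and 549, 562 and 537 CPM in those of 1A. It was 2.49 ± 0.07 (adjusted p = 2.1e-17) higher in Protocol 1 and 2.77 ± 0.08 (adjusted p = 6.63e-17) higher in Protocol 2 than in Protocol 3 on the log2 scale. Eno1 (2.35 ± 0.07, adjusted p = 8.23e-17 and 2.01 ± 0.08, adjusted p = 7.97e-15), Pgam1 (2.61 ± 0.07 and 2.24 ± 0.07) and Tpi1 (1.38 ± 0.07 and 1.41 ± 0.08) went with it, each for Protocol 1 and then Protocol 2 against Protocol 3. Pkm was at 1148, 1089.8 and 858 CPM in Protocol 3 and 1756, 1758 and 1812 CPM in 1A, a smaller gap of 0.67 ± 0.08 for Protocol 1 and 0.46 ± 0.09 for Protocol 2. Aldoa was 0.50 ± 0.06 higher in Protocol 1 and did not pass in Protocol 2 (-0.01 ± 0.07, adjusted p = 0.952). Pdk1 was at 7.63, 9.04 and 13.2 CPM in Protocol 3, 35.7, 34.3 and 37.98 CPM in Protocol 2 and 81.3, 85.4 and 81.2 CPM in 1B, with log2 differences of 2.74 ± 0.12 and 1.76 ± 0.13. Egln1 was higher in both as well, by 1.80 ± 0.08 and 1.38 ± 0.09.

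Slc2a1, Pfkfb3 and Hif1a stood the other way. Slc2a1 was at 394, 368 and 379 CPM in Protocol 3, above 111, 98.9 and 95.1 CPM in 1C, 76.4, 72.1 and 75.98 CPM in 1B, 63.1, 56.03 and 59.8 CPM in Protocol 2 and 64.1, 56.4 and 51.9 CPM in 1A. The libraries of Protocols 1A and 2 overlapped, while those of Protocol 3 lay above all others. The log2 difference of Slc2a1 was -2.38 ± 0.06 (adjusted p = 5.65e-18) in Protocol 1 and -2.76 ± 0.09 (adjusted p = 3.74e-16) in Protocol 2 relative to Protocol 3. Pfkfb3 was at 662, 700.2 and 663 CPM in Protocol 3, 244, 252 and 268 CPM in Protocol 2 and 61.2, 59.4 and 68.4 CPM in 1A, with differences of -3.09 ± 0.05 and -1.49 ± 0.07. Hif1a was at 425, 421 and 377 CPM in Protocol 3 and 108, 103 and 116 CPM in Protocol 2, with differences of -1.95 ± 0.06 and -1.99 ± 0.09, while Protocols 1 and 2 did not differ past the threshold (0.04 ± 0.07, adjusted p = 0.653). In the untreated Protocol 3 cells these 3 genes stood above every HMGB1-treated neonatal library.

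The hexokinases and phosphofructokinases differed in both directions between Controls. Hk2 was at 82.8, 91.1 and 72.7 CPM in Protocol 3, 84.1, 86.6 and 89.7 CPM in Protocol 2 and 48.4, 52.8 and 61.9 CPM in 1A, and was lower in Protocol 1 than in either (-0.56 ± 0.08, adjusted p = 1.1e-06 against 3 and -0.56 ± 0.08, adjusted p = 3.63e-06 against 2). Pfkl was higher in both Protocol 1 and Protocol 2 than in Protocol 3, by 0.67 ± 0.07 and 0.95 ± 0.08. Pfkm, at 2.63 ± 0.683 CPM in Protocol 3 (mean ± SD, n = 3), was higher by 2.03 ± 0.17 and 1.44 ± 0.20. Pfkp differed in opposite directions, with 0.84 ± 0.07 in Protocol 1 and -0.18 ± 0.08 (adjusted p = 0.0439) in Protocol 2, a call lost on leaving out Protocol 2 Control replicates 2 or 3 or Protocol 3 Control replicates 1 or 2 (log2 fold changes -0.18 to -0.12, adjusted p from 0.0737 to 0.244). Gpi1 was higher in both, by 1.06 ± 0.06 and 0.38 ± 0.06.

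The widest difference between Protocols 1 and 3 was that of Aldoc, with 4.89 ± 0.27 (adjusted p = 3.91e-11) in Protocol 1 and 2.76 ± 0.32 (adjusted p = 7.25e-07) in Protocol 2, against a level of 1.02, 0.483 and 0.553 CPM in Protocol 3. The 8 astrocyte markers summed to 17.2 to 19.6 CPM there. Eno2 went the other way, at 139, 139 and 87.8 CPM in Protocol 3 and 26.7, 21.4 and 21.6 CPM in Protocol 2, with differences of -3.01 ± 0.12 (adjusted p = 4.53e-13) and -2.47 ± 0.16 (adjusted p = 6.3e-10). Of the hypoxia targets, Vegfa stood on either side of Protocol 3, at 20.9, 22.9 and 21.9 CPM there, 56.2, 72.3 and 65.7 CPM in 1C and 5.37 to 10.9 CPM in 1A and 1B. The mean of the 3 neonatal Controls gave -0.52 ± 0.11 (adjusted p = 0.000159) against Protocol 3 and does not hold for 1C, where every library lay above those of Protocol 3. Protocol 2 was lower (-0.38 ± 0.13, adjusted p = 0.0128), a call lost on leaving out Protocol 2 Control replicates 2 or 3 (log2 fold changes -0.31 to -0.29, adjusted p from 0.0681 to 0.0868). Bnip3 was lower in Protocol 3, with 0.72 ± 0.11 for Protocol 1 and 1.41 ± 0.13 for Protocol 2, but with 1A alone in place of the mean of 3 the former was no longer called (0.18, adjusted p = 0.242). Slc16a3 was 0.68 ± 0.09 in Protocol 1 and 0.04 ± 0.10 (adjusted p = 0.717) in Protocol 2.

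The pentose phosphate genes did not move as one between protocols. Taldo1 was at 1317, 1231 and 1027 CPM in Protocol 3, 542, 475 and 493 CPM in 1A and 188, 169 and 185 CPM in Protocol 2, and Pgd stood at 896, 584 and 219 CPM on average in the same order. G6pdx, by contrast, was higher in 1A, at 231, 223 and 233 CPM against 119, 113 and 102 CPM in Protocol 3 and 95.7, 97.9 and 93.7 CPM in Protocol 2, and Tkt was at 549, 229 and 182 CPM. All 4 were higher in Protocol 1 than in Protocol 2, by 1.13 ± 0.09, 1.09 ± 0.07, 0.98 ± 0.06 and 1.24 ± 0.07 on the log2 scale. Pdhb was at 174, 168 and 152 CPM in Protocol 3 and 49.4, 53.9 and 60.1 CPM in Protocol 2, with differences of -1.42 ± 0.06 for Protocol 1 and -1.68 ± 0.08 for Protocol 2 against Protocol 3, whereas Pdha1 was 0.42 ± 0.07 and 0.10 ± 0.08.

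Between Protocols 1 and 2, 20 of the 35 genes were higher and 8 lower in Protocol 1, where 55.3% of all genes differed (24.6% higher, 30.7% lower). The fibroblast and mural markers summed to 200.5 to 316 CPM in Protocol 2, with counts for 9 of 9, and 3.99 to 104 CPM in the neonatal Controls, and the astrocyte markers to 64.5 to 80.6 and 21.8 to 49.4 CPM. Their part in the differences was not tested. The largest differences were those of Aldoc (2.13 ± 0.19), Egln3 (1.85 ± 0.32), Ldhb (-1.73 ± 0.09) and Pfkfb3 (-1.59 ± 0.06). Ldhb was at 70.2, 66.2 and 72.6 CPM in Protocol 2, 73.5, 71.1 and 71.1 CPM in Protocol 3 and 17.4, 13.4 and 14.2 CPM in 1A, and the adult protocols did not differ past the threshold (-0.13 ± 0.11, adjusted p = 0.288). With Protocol 1A alone in place of the mean of 3, Slc2a1 went from 0.38 to -0.04 against Protocol 2 (adjusted p = 0.733) and Hk1 from -0.52 to 0.04 against Protocol 3 (adjusted p = 0.701). Hk3 did not differ between Protocols 1 and 3 past the threshold (-0.04 ± 0.07, adjusted p = 0.573), while 1A alone was lower (-0.42, adjusted p = 8.86e-05). Egln3 against Protocol 3 (0.82, adjusted p = 0.0509) and Eno1 (0.17, adjusted p = 0.0712) and Pdhb (0.15, adjusted p = 0.141) against Protocol 2 no longer passed with 1A alone. Hk1 (0.73, adjusted p = 1.4e-06), Tpi1 (-0.27, adjusted p = 0.011), Slc16a1 (-0.30, adjusted p = 0.0126) and Vegfa (-1.48, adjusted p = 4.57e-08) against Protocol 2 passed with 1A alone and not with the mean. Hk2 did not pass between 2 and 3 (-0.01 ± 0.10, adjusted p = 0.958).

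The neonatal protocols differed less. Without GM-CSF, 1B had 18 of the 35 genes higher and 7 lower than 1A. Of all genes, 30.8% differed (18.2% higher, 12.6% lower). With 21 in place of 10 days of culture, 1C had 12 higher and 8 lower than 1A, where 21% of all genes differed (13.1% higher, 7.91% lower). Both comparisons share the libraries of 1A. Aldoc was at 58.99, 50.6 and 51.2 CPM in 1A, 12.8, 9.20 and 9.40 CPM in 1B and 18.2, 20.3 and 10.99 CPM in 1C, with differences of -2.32 ± 0.21 (adjusted p = 3.13e-07) and -1.69 ± 0.20 (adjusted p = 1.7e-05). The 8 astrocyte markers summed to 28.3 to 39.1, 21.8 to 49.4 and 32.6 to 36.9 CPM in these Controls, mostly Aldh1l1, and Gfap was at 0 in 1A. The 9 fibroblast and mural markers, mostly collagen genes, summed to 3.99 to 6.17 CPM in 1A, 28.6 to 92.6 in 1B and 50.7 to 104 in 1C, with Rgs5 at 0 in each. The neutrophil markers, mostly Mmp8, summed to 43.1 to 60.8, 2.27 to 4.43 and 13.3 to 28.5 CPM, with S100a9 and Ngp at or near 0. The endothelial markers, mostly Flt1, summed to 9.33 to 17.9, 5.80 to 9.50 and 38.5 to 49.4 CPM, with Cldn5 at 0. The part of these in the differences between neonatal Controls was not tested. Vegfa was at 7.84, 5.59 and 5.37 CPM in 1A and 56.2, 72.3 and 65.7 CPM in 1C, a difference of 3.37 ± 0.14 (adjusted p = 1.03e-11). Bnip3 was at 12.1, 12.5 and 12.6 CPM in 1A and 35.4, 31.2 and 26.4 CPM in 1B (1.36 ± 0.13, adjusted p = 1.46e-07). Egln3 was at 8.18, 4.90 and 5.22 CPM in 1A and 16.3, 10.5 and 11.3 CPM in 1B (1.09 ± 0.34, adjusted p = 0.0233). The call of Egln3 was lost on leaving out Protocol 1A Control replicates 2 or 3 or Protocol 1B Control replicate 1 (log2 fold changes 0.88 to 0.98, adjusted p from 0.0872 to 0.0986). The pentose phosphate genes Tkt, Pgd, G6pdx and Taldo1 had -0.51, -0.73, -0.73 and -0.90 in 1C against 1A, and all 4 passed as lower.

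**Figure D3:**
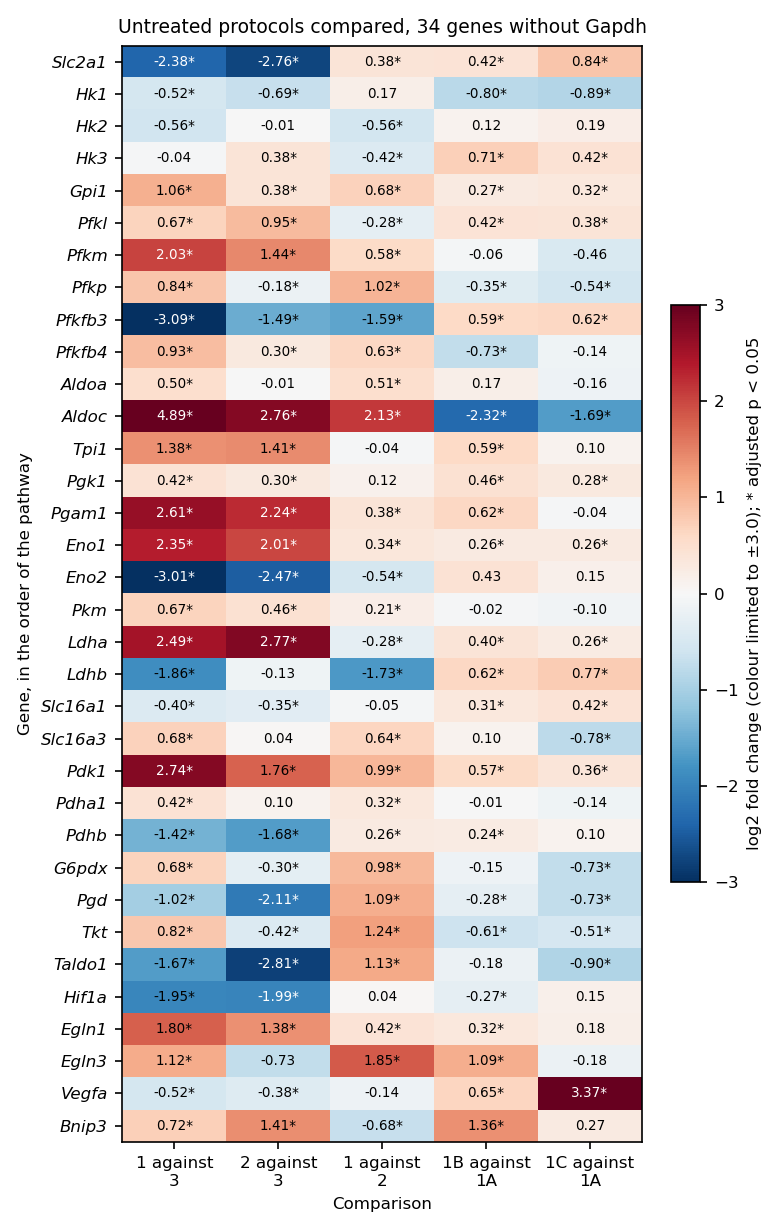
Log2 difference between the untreated Controls of the protocols (columns, named protocol minus the protocol it is set against) for 34 of the 35 genes (rows, pathway order), Gapdh left out; red is higher and blue lower in the protocol named before "against", and an asterisk marks an adjusted p below 0.05. The columns against Protocol 3 show Ldha at 2.49 and 2.77 and Slc2a1 at -2.38 and -2.76, while Vegfa at 3.37 stands out in the column of 1C against 1A.

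Of the further pathway genes, 21 of 31 glycolysis and pentose phosphate genes were raised and 8 reduced in Protocol 1 relative to Protocol 3, and 21 and 8 in Protocol 2. Pgls (2.50 ± 0.08, adjusted p = 2.45e-16), Pgm2, a phosphoglucomutase (2.42 ± 0.09, adjusted p = 2.48e-15), and H6pd, the dehydrogenase of the endoplasmic reticulum (2.53 ± 0.10, adjusted p = 2.76e-15), were higher in Protocol 1, and the glycerol phosphate dehydrogenase Gpd1 was lower (-3.86 ± 0.18, adjusted p = 4.2e-14). Of the further hypoxia genes, 10 of 26 were raised and 13 reduced in Protocol 1 relative to Protocol 3, and 9 and 14 in Protocol 2. Bnip3l, the partner of Bnip3, was higher in Protocol 1 (2.86 ± 0.10, adjusted p = 3.01e-16), while Adm, which encodes adrenomedullin (-6.82 ± 0.17, adjusted p = 3.67e-18), and Ddit4, an inhibitor of mTORC1 (-3.90 ± 0.15, adjusted p = 3.18e-15), were lower.

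The make-up of the enzyme families is given per kilobase of gene length, as the share of each gene in its family in each library, and as a description with no test. Shares of counts not divided by length follow for lactate dehydrogenase and phosphofructokinase. Ldhb made up 58.3% ± 1.37 of lactate dehydrogenase transcripts in the Control of Protocol 3 (SD, n = 3), 15.8% ± 0.541 in Protocol 2 and 5.44% ± 0.760, 6.31% ± 0.678 and 7.61% ± 1.16 in 1A, 1B and 1C. With HMGB1 it was 3.26% ± 0.284, 3.75% ± 0.880 and 4.99% ± 0.505 in 1A, 1B and 1C. As a share of counts Ldhb was 39.9% in the Control of Protocol 3, below Ldha, 8.19% in Protocol 2 and 2.66%, 3.10% and 3.76% in 1A, 1B and 1C. Eno2 made up 49.7% ± 5.60 of enolase in Protocol 3 and 4.30% ± 0.436 or less in the other Controls. The 8 neuron markers summed to 1.93 to 5.07 CPM in Protocol 3 and 3.06 to 19.6 CPM in the cultured Controls. Eno1 and the near copy Eno1b could share reads, so the enolase shares are uncertain to that extent. Pfkl went from 52.8% ± 1.62 to 63.8% ± 2.63 of phosphofructokinase in 1B with HMGB1 and Pfkm from 18.9% ± 1.24 to 5.25% ± 1.14. As shares of counts Pfkl went from 44.3% to 49.6% and Pfkm from 7.92% to 2.04%, and in the 1B Control Pfkp, at 47.8%, was then the largest. In 1C the share of Pfkp went from 27.4% ± 1.55 to 48.5% ± 3.65, and Pfkl went from 56.9% ± 1.49 to 43.2% ± 3.25. As shares of counts Pfkp went from 45.9% to 67.2% and Pfkl from 47.5% to 29.9%. Slc16a3 went from 74.7% ± 1.24 to 91.5% ± 0.994 of the pair of lactate transporters in 1B and from 59.9% ± 3.51 to 58.2% ± 5.59 in 1C. Hk3 held between 84.3% and 92.3% of hexokinase in all 10 groups.

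**Figure D4:**
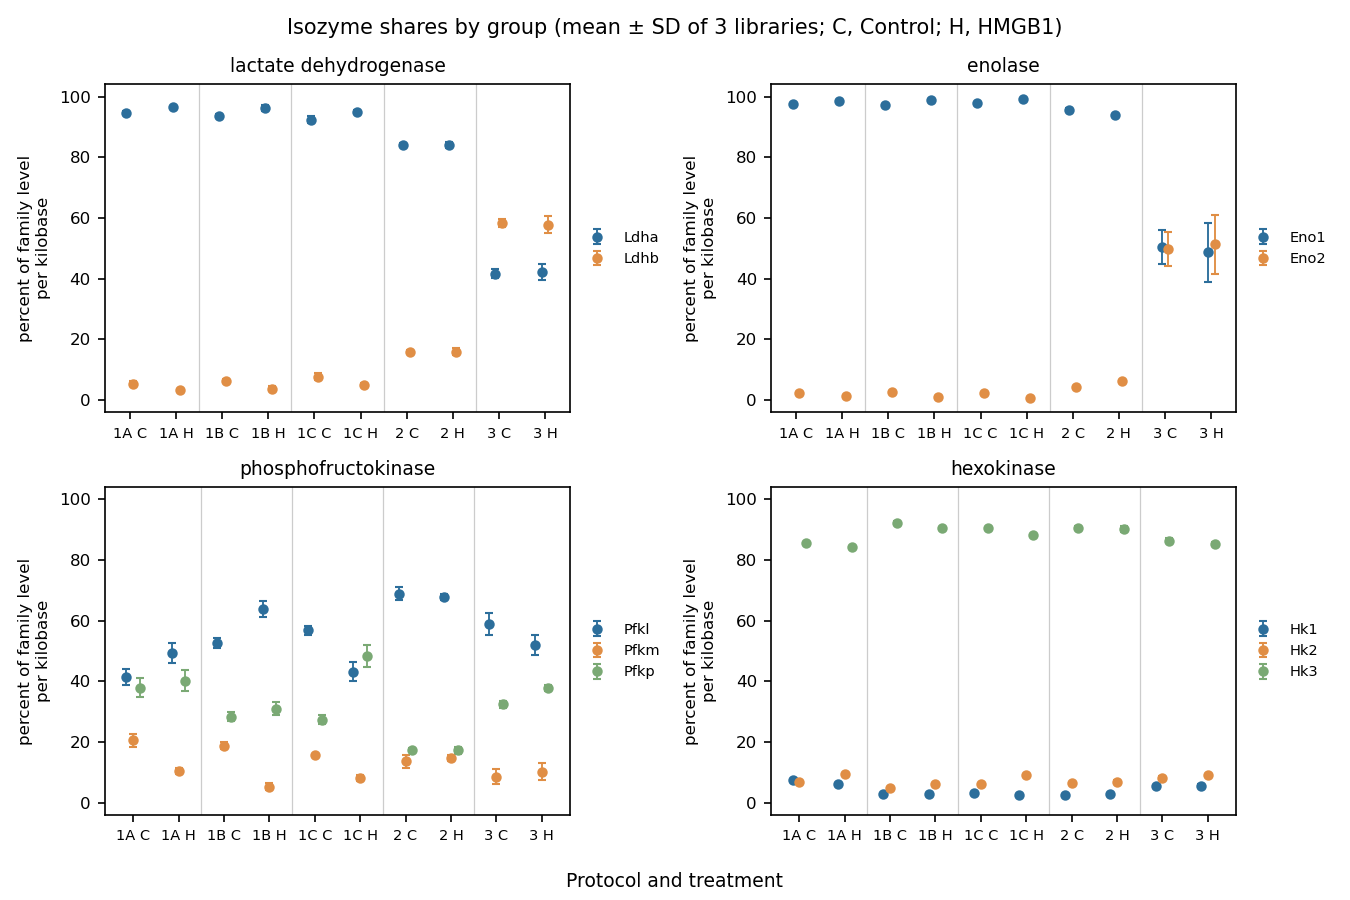
Share of each gene in 4 enzyme families, as percent of the family level per kilobase (points, mean of 3 libraries; bars, SD), by protocol and treatment (C, Control; H, HMGB1). Ldhb and Eno2 are minor in Protocols 1A to 2 and reach 58.3% and 49.7% in the Control of Protocol 3, and the share of Pfkm is lower with HMGB1 in each neonatal protocol.

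Gapdh, a glycolytic enzyme often used as a reference gene (chr6:125161715-125166467, - strand, GRCm38) varied too much between libraries to be compared. It was at 9.70, 118 and 7.20 CPM in the Control libraries of 1A, 160.3, 4.29 and 4.49 CPM in those of Protocol 2 and 148, 92.2 and 7.73 CPM in the HMGB1 libraries of 1C. Its counts ranged from 112 to 4297 per library. The SD within groups was 1.69 on the log2 scale, rank 2 from the most variable of 6578 genes with a mean of at least 20 CPM, whose median was 0.11. Neighbouring steps varied far less between the same libraries, with SDs of 0.08 for Pgk1, 0.09 for Eno1 and 0.14 for Pkm. The 5 rows named or described as Gapdh pseudogenes held 53 counts in all against 23767 for Gapdh. The setting for multimapping reads is not given, so these counts do not show how many reads were shared. In edgeR's test with the filter on low counts and all libraries Gapdh passed in no comparison, with for instance 1.70 ± 1.36 (adjusted p = 0.349) in 1C. With no filter it passed in 8 comparisons, among them the 5 between Controls (log2 differences -0.81 to 1.33, adjusted p from 5.55e-33 to 4.35e-08). It also passed in the response of 1B without Control replicate 3 (log2 fold change -1.90, adjusted p = 0.00339) and in that of Protocol 3 without Control replicate 2 (log2 fold change -1.11, adjusted p = 0.0111). The DESeq2 Wald test called it in 1B and Protocol 3 as well. The cause of its spread was not tested.

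**Figure D5:**
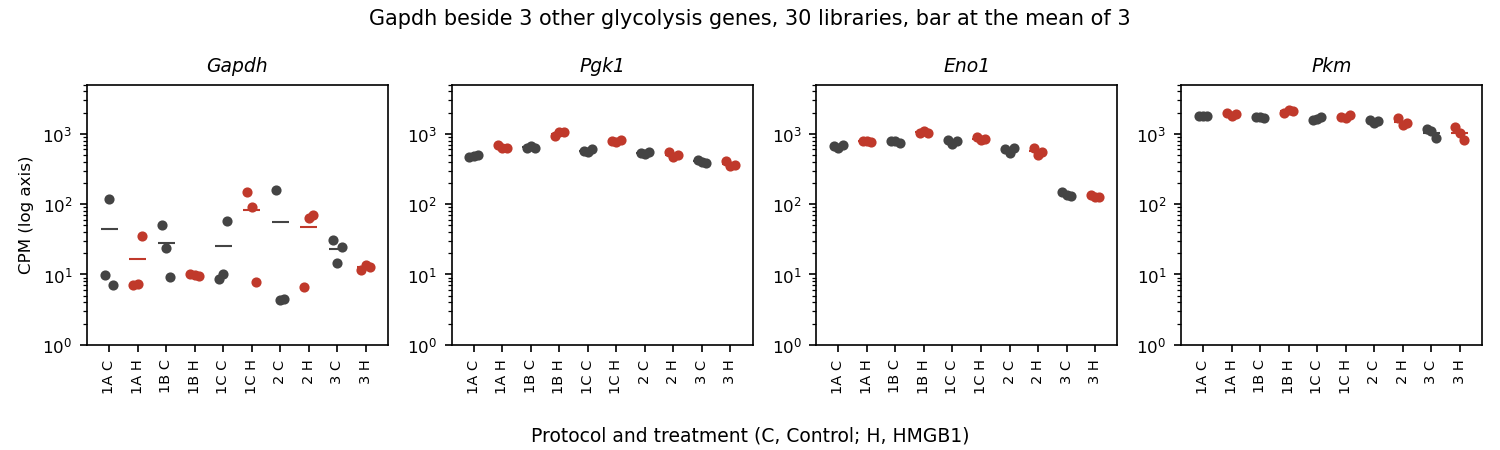
Level of Gapdh, Pgk1, Eno1 and Pkm in each of the 30 libraries (points, CPM on a log axis from 1) by protocol and treatment, with a bar at the mean of 3. Gapdh points of a group scatter widely, with 160.3, 4.29 and 4.49 CPM in the Protocol 2 Control, while those of the other genes lie close together.

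Some of these genes share exon bases with a neighbour, and the sources used here do not state whether reads were counted by strand. G6pdx shares 13.6% of its exon bases with Ikbkg, Pdha1 16.1% with Map3k15 and Pfkp 5.6% with Pitrm1 on the opposite strand. Also on the opposite strand, Bnip3 shares 22.3% with Gm45507, Gpi1 11.5% with Gm26762 and Hif1a 5.6% with Gm15283. These neighbours held 0, 733 and 465 counts in all libraries. Pkm shares 15.3% and Pfkm 10.2% with a predicted gene on the same strand. The values of all these genes are uncertain to that extent. Positions are those of GENCODE release M21 (GRCm38), which 34 of the 35 genes match.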

How the data were processed

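Bulk mRNA of mouse microglia was sequenced in 30 libraries of 10 groups. The authors deposited raw counts of reads per gene, made with HISAT2 2.0.5 as aligner and featureCounts 1.5.0-p3 as counter according to the submitters' processing notes. The genome build and the settings for strand and multimapping reads are not given in the sources used here. 0 further columns of per-sample values were left out, and a second row of the symbol Aldoa was not used.

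Fits were made in R 4.3.3 with edgeR 4.0.16 (filterByExpr, TMM, robust quasi-likelihood F test, statmod 1.5.0) and adjusted by Benjamini-Hochberg over all genes tested, with a threshold of 0.05. HMGB1 responses were fitted within the 6 libraries of a protocol, Controls in 15 libraries, and differences between responses in all 30. The standard error is the log2 fold change divided by the square root of F. The fits were tested on simulated data. Alternatives were DESeq2 1.42.0 (size factors, Wald test), no filter on low counts, a block for the replicate number, fits without single libraries, other sets of libraries and, chosen after seeing the data, leaving out rRNA-type rows. Same-numbered Control and HMGB1 libraries deviated together in Protocols 2 (r = 0.288, 0.185, 0.18) and 3 (r = 0.151, 0.131, 0.186). In 1B (r = 0.096, 0.234, 0.307) and 1C (r = 0.07, 0.052, 0.09) the same number also had the highest r for every replicate. In 1A (r = 0.018, 0.066, 0.055) it did so for replicates 2 and 3. The labels give the numbers but not what they pair. They were taken as pairs only in the adult protocols, where every r was above 0.1. This limit does not set the protocols clearly apart, since 0.234 and 0.307 in 1B were above every r of Protocol 3. The main fits used no pairs in any protocol, those of differences between responses included. Pairing in the neonatal protocols is not settled. P values set a difference against the spread between libraries within groups. That spread is estimated over all groups of a fit and moderated over genes.

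The 35 genes and all lists were chosen with earlier results of these data known. All 35 are accounted for. Values in every library are given for the most abundant gene of each role and for Slc2a1, Hk2, Pfkfb3, Ldha, Ldhb, Slc16a3, Pdk1, G6pdx, Hif1a, Vegfa, Egln3 and Bnip3, and others are named where they went against their role, were among the 5 largest changes or did not pass. From each list of further genes, no more than 4 passing genes (by smallest adjusted p) and 2 others (by highest level) are named. The library values of Aldoc and Eno2 were chosen after they were seen.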

Additional observations from a re-analysis of the deposited data

Results flagged for a closer look

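The response to HMGB1 differed between protocols in a direct test, an interaction contrast in edgeR's quasi-likelihood fit of all 30 libraries at an adjusted p below 0.05. Values are differences of log2 fold changes. Against the mean response of 1A, 1B and 1C, Protocol 2 had a lower response for Hk2 (-1.12), Pfkfb3 (-1.03), Slc2a1 (-1.01), Pfkp (-0.996), Hif1a (-0.82), Pgd (-0.81), Pfkl (-0.72), Hk3 (-0.66), Slc16a3 (-0.63), Pgk1 (-0.58), Ldha (-0.42), Hk1 (-0.42), Aldoa (-0.40), G6pdx (-0.39) and Eno1 (-0.34). Its response was higher for Vegfa (1.78), Eno2 (1.39), Pfkfb4 (0.82), Pfkm (0.67), Egln1 (0.55) and Ldhb (0.33). Protocol 3, set against the same mean, had a lower response for Slc2a1 (-1.19), Pfkfb3 (-1.05), Hk2 (-1.03), Pfkl (-1.01), Pgd (-1.002), Hif1a (-1.001), Pfkp (-0.91), Slc16a3 (-0.83), Hk3 (-0.68), G6pdx (-0.62), Pgk1 (-0.62), Hk1 (-0.48), Aldoa (-0.44), Ldha (-0.41) and Eno1 (-0.39). Its response was higher for Vegfa (1.65), Pfkfb4 (1.03), Eno2 (0.94), Pfkm (0.78), Egln1 (0.49) and Slc16a1 (0.34). Both comparisons share the neonatal libraries. Some of these calls depended on the setting or on single libraries. With Protocol 1A alone in place of the mean, Hk1 (-0.05, adjusted p = 0.792), Pfkm (0.53, adjusted p = 0.121), Ldhb (0.41, adjusted p = 0.057) and Egln1 (0.33, adjusted p = 0.0683) no longer differed past the threshold in Protocol 2, nor did Hk1 (-0.12, adjusted p = 0.517), Pfkm (0.63, adjusted p = 0.0964), Eno2 (0.66, adjusted p = 0.16) and Egln1 (0.27, adjusted p = 0.171) in Protocol 3. In Protocol 2, Ldhb was lost by the DESeq2 Wald test (0.31, adjusted p = 0.0544), with DESeq2 size factors (0.31, adjusted p = 0.0536) and on leaving out Protocol 1A Control replicate 1 or Protocol 1A HMGB1 replicate 3 or Protocol 1B Control replicate 1 or Protocol 2 Control replicates 1 or 2 or Protocol 2 HMGB1 replicates 1 or 2 (differences 0.29 to 0.35, adjusted p from 0.0511 to 0.0956), and Pfkm was lost on leaving out Protocol 2 Control replicate 2 (difference 0.56, adjusted p = 0.0519). In Protocol 3, Pfkm was lost on leaving out Protocol 3 Control replicate 3 or Protocol 3 HMGB1 replicate 3 (differences 0.60 to 0.62, adjusted p from 0.0655 to 0.0895), and Slc16a1 with no filter on low counts (0.34, adjusted p = 0.0629) and on leaving out Protocol 3 Control replicates 1, 2 or 3 or Protocol 3 HMGB1 replicates 1 or 2 (differences 0.30 to 0.35, adjusted p from 0.0561 to 0.0981).

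Within the neonatal protocols, 1B, without GM-CSF, had a lower response than 1A for Hif1a (-0.75) and Pdhb (-0.39). Its response was higher for Slc16a3 (0.62), Hk1 (0.57), Pgd (0.47) and Tkt (0.37). Protocol 1C, with the longer culture, had a lower response than 1A for Pfkfb4 (-0.67), Slc2a1 (-0.65), Pfkl (-0.55), Egln1 (-0.54) and Pdhb (-0.34). Its response was higher for Slc16a1 (0.88), Pfkp (0.86), Hk2 (0.72), Hk3 (0.59) and Hk1 (0.53). These comparisons share the libraries of 1A. In 1B, Pdhb was lost with no filter on low counts (-0.38, adjusted p = 0.105) and on leaving out Protocol 1A Control replicates 2 or 3 or Protocol 1A HMGB1 replicates 1, 2 or 3 or Protocol 1B Control replicates 1 or 2 or Protocol 1B HMGB1 replicates 1 or 3 (differences -0.40 to -0.34, adjusted p from 0.0539 to 0.115). Tkt was lost with no filter (0.39, adjusted p = 0.0649) and on leaving out Protocol 1A Control replicate 3 or Protocol 1A HMGB1 replicates 2 or 3 or Protocol 1B Control replicates 1, 2 or 3 or Protocol 1B HMGB1 replicates 1 or 3 (differences 0.32 to 0.38, adjusted p from 0.0601 to 0.115), and Pgd on leaving out Protocol 1A Control replicate 1 or Protocol 1A HMGB1 replicates 2 or 3 or Protocol 1B Control replicates 2 or 3 or Protocol 1B HMGB1 replicate 1 (differences 0.39 to 0.45, adjusted p from 0.077 to 0.11). In 1C, Pdhb was lost by the DESeq2 Wald test (-0.26, adjusted p = 0.121), with DESeq2 size factors (-0.26, adjusted p = 0.136), with no filter (-0.32, adjusted p = 0.172) and on leaving out Protocol 1A Control replicates 2 or 3 or Protocol 1A HMGB1 replicates 1, 2 or 3 or Protocol 1C Control replicates 1 or 2 or Protocol 1C HMGB1 replicates 1 or 3 (differences -0.36 to -0.27, adjusted p from 0.0546 to 0.156), and Egln1 on leaving out Protocol 1A HMGB1 replicate 1 (difference -0.38, adjusted p = 0.0736).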

How the results depend on the processing

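Most values of single genes kept their side of the threshold, and direction was compared only where the main or the alternative fit passed. Of the values under all alternatives, 7695 were kept in this sense, genes that passed in neither fit included. A further 177 no longer passed, 103 newly passed and 2 reversed. With Protocol 1A alone as Protocol 1, Hk1 reversed to 0.0392 against Protocol 3 and Slc2a1 to -0.0385 against Protocol 2, and the genes with a higher response in Protocols 2 and 3 went from 6 to 3 in each. Higher responses over all 18182 genes tested went from 4168 to 2907 in Protocol 2 and from 3672 to 2630 in Protocol 3. In the fit of all 30 libraries, 7 genes in place of 11 fell in 1A, beside 4218 of 18182 genes tested in place of 4258 of 13489. In Protocol 2, 1 gene rose by the DESeq2 Wald test and 1 with no filter on low counts, beside 257 of 15564 and 365 of 28268 genes tested. In Protocol 3, 1 gene, Gapdh, fell by the DESeq2 Wald test and 1 with no filter, beside 5 of 15401 and 12 of 28667. With no filter, 1 gene in place of 2 had a lower response in 1B than in 1A, beside 589 of 32907 genes tested in place of 583 of 18182. With shares not divided by gene length, 110 of the isozyme shares moved by more than 1 SD. The cause was not tested.

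With the replicate number as a block, 2 genes rose and 1 fell in Protocol 2, beside 7.95% of all genes called. In Protocol 3 the block called 0, beside 2.17% of all genes. Whether the numbers pair the libraries of the neonatal protocols is not settled. Over all comparisons, the block took the genes with a lower response in 1C than in 1A from 5 to 9. Of all 18182 genes tested, those with a lower response there went from 1551 to 2110. The block moved no other count of these 35 genes past 1.5 times.

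When each library was left out in turn, the genes that fell in 1A ranged from 6 (without HMGB1 replicate 2) to 12. In Protocol 3 those that fell ranged from 0 to 1 (Gapdh, without Control replicate 2). For 1B against 1A the higher responses ranged from 2 to 5 and the lower from 1 to 3, and for 1C against 1A the lower ranged from 3 (without HMGB1 replicate 1 of 1A) to 5. Shares of all genes in these fits are not given here. Genes at low counts, such as Egln3 and Vegfa in 1A, have wide standard errors, and 3 libraries a group limit small changes.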
